A study of Mus musculus with 12 samples.

Results

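The genes described here encode the enzymes that make pyrimidine nucleotides and the building blocks of DNA. They are Cad, Dhodh and Umps of the de novo pathway, the CTP synthase gene Ctps, the uridine genes Uck2 and Upp1, the kinase gene Cmpk1, the ribonucleotide reductase genes Rrm1 and Rrm2, and the thymidylate synthase gene Tyms. The 10 genes were taken by name from a fixed list. All 10 were found among the 30139 genes or transcripts on the array, under 13 probes, and all 10 were among the 20084 genes bright enough to test. Every one of the 13 probes was well above background on all 12 arrays.

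The study compared 3 kinds of colorectal tissue, each on 4 single-colour arrays: polyps of Apc+/Δ716 mice, normal tissue of Apc+/Δ716 mice (called Apc normal), and normal tissue of wild-type mice. Polyp and Apc normal arrays came from mice 103, 106, 107 and 110, and the wild-type arrays from mice 102, 104, 105 and 108. All mice were female, 14 weeks old and of strain C57BL/6N. The Δ716 allele is a truncated form of Apc, a tumour suppressor that restrains Wnt signalling. The mutant mice carry it in 1 copy throughout the body, so their normal tissue has the same genotype as their polyps apart from any later change in the polyps, which the labels do not describe. Each array held RNA of a piece of whole tissue, in which fewer cells of a type and less RNA per cell cannot be told apart. All wild-type arrays lay on slide 1, those of mice 103 and 106 on slide 2 and those of mice 107 and 110 on slide 3. Slide and genotype therefore cannot be told apart in comparisons with wild type, whereas polyps and Apc normal tissue can be compared within slides 2 and 3. On each array 64.6% to 73.8% of spots stood clear of background and 0 were saturated. The number of arrays limits the precision.

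Cells obtain pyrimidines in 2 ways. The de novo pathway builds the ring from small molecules and ends in UMP, from which the other pyrimidine nucleotides are made, while salvage enzymes rebuild nucleotides from uridine, cytidine and thymidine. For DNA, ribonucleotide reductase removes an oxygen from the sugar and thymidylate synthase adds the methyl group that makes thymidine. In the colon the dividing cells sit at the base of the crypt, and differentiated absorptive cells line the surface.

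The polyps held more RNA of both ribonucleotide reductase subunits, of the uridine-cytidine kinase Uck2 and of the CTP synthase Ctps than Apc normal tissue, and less of the UMP-CMP kinase Cmpk1. The log2 differences were 1.62 ± 0.26 for Rrm2, 1.46 ± 0.21 for Uck2, 1.27 ± 0.11 for Rrm1, 0.95 ± 0.28 for Ctps and −1.39 ± 0.19 for Cmpk1 (SE, 4 against 4 arrays). The de novo genes Cad, Dhodh and Umps, the uridine phosphorylase gene Upp1 and Tyms did not pass. In all, 4 of the 10 genes were higher and 1 was lower at an adjusted p under 0.05, beside 20.5% of all tested genes higher, 24.9% lower and 45.5% in either direction. The share called, 5 of 10, is thus close to that of all genes. Polyp and Apc normal arrays did not overlap for 5 genes that were higher (20.5% of all genes) and 1 that was lower (24.7%), with 45.1% of all genes in either direction. The median of the 10 differences was 0.46, against −0.06 over all tested genes.

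Here and below a level is the log2 signal of a gene's brightest probe minus the 75th percentile of log2 signals on that array, and a difference is the first named group minus the other on the same scale. Levels of different genes come from different probes and are not set against each other. The comparisons of polyps with Apc normal and with wild-type tissue share the polyp arrays, and both comparisons of Apc normal tissue share its arrays, so the differences are given side by side and not as separate evidence.

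**Figure D1:**
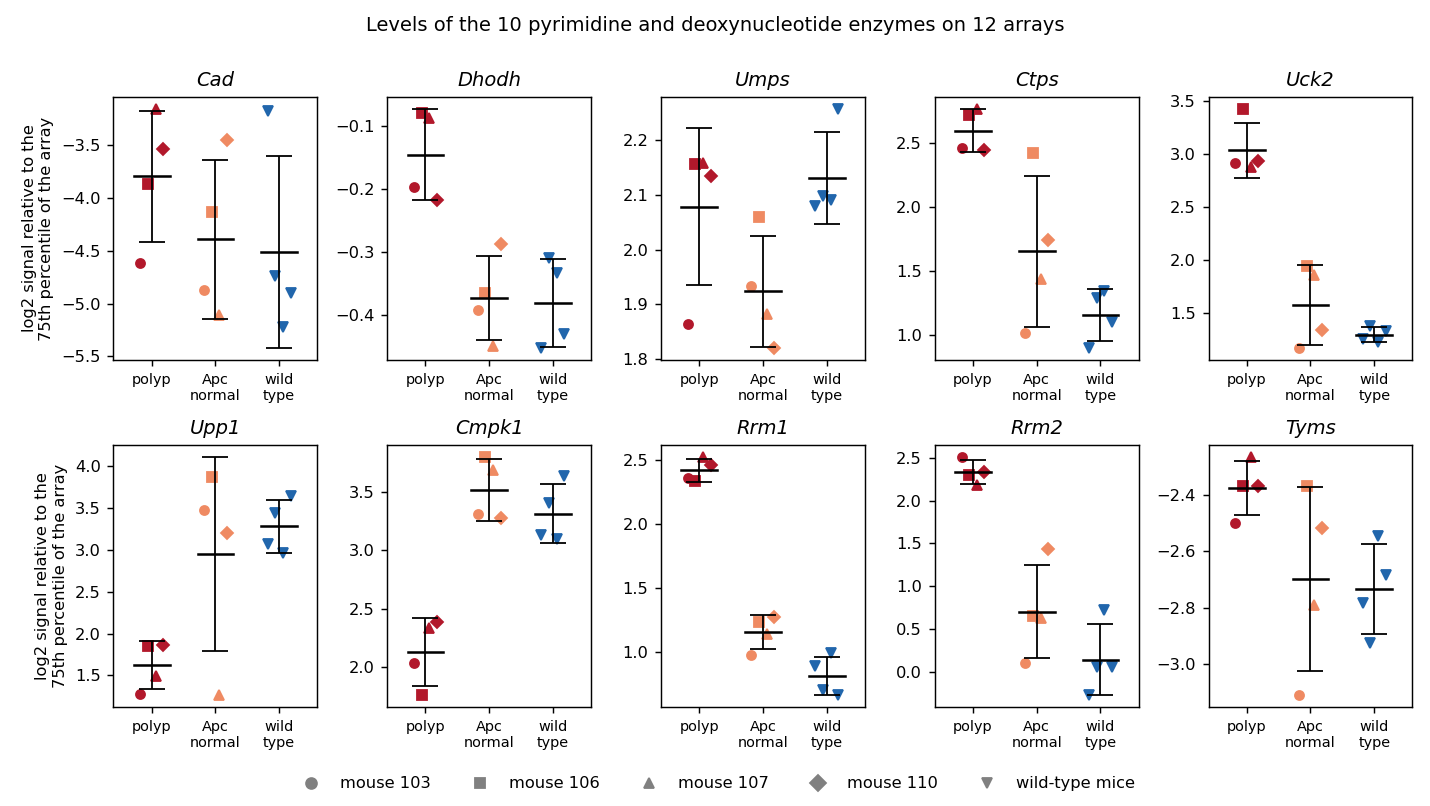
Level of each of the 10 genes on the 12 arrays (y axis, log2 signal minus the array's 75th percentile, own scale per panel), with polyps at the left, Apc normal tissue in the middle and wild-type tissue at the right. Points are arrays with a symbol per mouse, and bars are the mean ± SD of 4 arrays. Polyps lie wholly above both normal groups for Dhodh, Ctps, Uck2, Rrm1 and Rrm2, and wholly below them for Cmpk1.

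Cad encodes the large enzyme that carries out the first steps of de novo pyrimidine synthesis. Its levels were −4.62, −3.87, −3.16 and −3.53 in polyps of mice 103, 106, 107 and 110, against −4.88, −4.14, −5.11 and −3.45 in Apc normal tissue of the same mice, and −3.18, −4.74, −5.23 and −4.90 in wild-type mice 102, 104, 105 and 108. The groups overlapped, and 1 wild-type array (mouse 102) stood among the highest of all 12. The probe was dim: the lowest signal well above background lay between −7.00 and −5.17 across the arrays. It sits at chr5:31369954-31370013 (mm9, plus strand), and its sequence is given because a single probe of low signal carries every value of Cad.
Cad probe: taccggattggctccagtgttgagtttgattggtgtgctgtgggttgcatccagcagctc

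The difference of Cad between polyps and Apc normal tissue was 0.60 ± 0.43, with a 95% interval of −0.39 to 1.59 (adjusted p = 0.290). Against wild-type tissue it was 0.72 ± 0.48 (adjusted p = 0.229). That value turned on 1 array: without wild-type mouse 102 it was 1.16 and passed (adjusted p = 0.0204). Mouse 107 gave the widest gap between polyp and normal tissue, 1.95, and the other mice gave 0.26, 0.27 and −0.08 (103, 106 and 110).

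Dhodh encodes dihydroorotate dehydrogenase, the mitochondrial enzyme that makes orotate. Polyps had levels of −0.20, −0.08, −0.09 and −0.22, against −0.39, −0.37, −0.45 and −0.29 in Apc normal tissue and −0.45, −0.31, −0.33 and −0.43 in wild-type tissue. No polyp array overlapped a normal array. The gap was small, 0.23 ± 0.09 against Apc normal tissue (95% interval 0.02 to 0.44, adjusted p = 0.0728, or 0.0300 with all 12 arrays in 1 fit) and 0.24 ± 0.08 against wild type, where it passed (adjusted p = 0.0296). The other Dhodh probe, a dimmer one at chr8:112117138-112117197 (mm9, minus strand), ran the opposite way against wild type. It measured −3.56, −3.33, −3.53 and −3.38 in polyps and −3.30, −3.15, −3.03 and −3.00 in wild-type tissue, a difference of −0.33 ± 0.10 (adjusted p = 0.0194). The probe used lies at chr8:112117384-112117443 on the same strand, and which of the probes follows the main transcript was not tested. The mean of the probes gave −0.05 against wild type, and the call was lost under 7 of 18 alternatives, so no direction is drawn for Dhodh there.

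Umps encodes the enzyme that turns orotate into UMP. Its levels were 1.86, 2.16, 2.16 and 2.13 in polyps, 1.93, 2.06, 1.88 and 1.82 in Apc normal tissue, and 2.08, 2.10, 2.09 and 2.26 in wild-type tissue. All 12 values lay within a narrow band, with the polyp array of mouse 103 among the lowest. The differences were 0.15 ± 0.11 between polyps and Apc normal tissue (95% interval −0.10 to 0.41, adjusted p = 0.289) and −0.05 ± 0.10 between polyps and wild type (adjusted p = 0.659). The other Umps probe (chr16:33955215-33955274, mm9, minus strand) gave −0.17 ± 0.16 and −0.34 ± 0.12 for these comparisons, and the second of these passed (adjusted p = 0.0360). Neither probe of Umps was higher in polyps past the test, but with normexp background correction the probe used passed against Apc normal tissue (0.30, adjusted p = 0.0316).

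Ctps encodes CTP synthase, which makes CTP from UTP. It measured 2.46, 2.72, 2.77 and 2.45 in polyps, against 1.01, 2.42, 1.44 and 1.75 in Apc normal tissue and 0.90, 1.29, 1.34 and 1.10 in wild-type tissue. Polyps stood above every normal array, though the Apc normal array of mouse 106 came close to the lowest polyp. Ctps was 1.93-fold higher than in Apc normal tissue (adjusted p = 0.0246) and 2.72-fold higher than in wild-type tissue (adjusted p = 4.71e-05). The first call was not firm: without the polyp array of mouse 106, that of mouse 107 or the Apc normal array of mouse 107 the adjusted p was 0.0644, 0.0611 and 0.0568. Within slide 2 the difference was 0.87 (adjusted p = 0.312) and within slide 3 it was 1.02 (adjusted p = 0.0734), each over 2 against 2 arrays. Its relative Ctps2, which makes the same product, was higher by 0.51 ± 0.10 (adjusted p = 0.00476) and by 0.37 ± 0.09 against wild type (adjusted p = 0.00732).

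Uck2 encodes a uridine-cytidine kinase, the enzyme that traps these nucleosides in the cell by adding a phosphate. Polyps measured 2.91, 3.42, 2.87 and 2.93, against 1.17, 1.94, 1.85 and 1.34 in Apc normal tissue and 1.26, 1.38, 1.22 and 1.33 in wild-type tissue. Every polyp lay well above every normal array. Uck2 rose 2.75-fold against Apc normal tissue (adjusted p = 0.00105) and 3.33-fold against wild type (adjusted p = 2.32e-05). The difference was 1.61 within slide 2 (adjusted p = 0.0574) and 1.31 within slide 3 (adjusted p = 0.0584). Uck1, which encodes a second enzyme of the same activity, was lower against wild type, at −0.44 ± 0.10 (adjusted p = 0.00529).

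Upp1 encodes uridine phosphorylase, which works in the other direction and splits uridine into uracil and a sugar phosphate. Its levels were 1.28, 1.85, 1.49 and 1.86 in polyps of mice 103, 106, 107 and 110, against 3.48, 3.87, 1.26 and 3.21 in Apc normal tissue and 3.08, 3.45, 2.96 and 3.65 in wild-type tissue. The Apc normal array of mouse 107 was the lowest of all 12, and the other 7 normal arrays stood above every polyp. The difference against Apc normal tissue was −1.33 ± 0.52 (95% interval −2.54 to −0.13) and did not pass (adjusted p = 0.0694). Without that array it was −1.90 and passed (adjusted p = 0.000694), and with all 12 arrays in 1 fit the unchanged difference passed (adjusted p = 0.0315). Within slide 2 Upp1 differed by −2.11 (adjusted p = 0.0251) and within slide 3, which holds mouse 107, by −0.56 (adjusted p = 0.659).

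Against wild-type tissue Upp1 was 3.17-fold lower in polyps (adjusted p = 0.000175). These values come from a bright probe at chr11:9036114-9036173 (mm9, plus strand). A much dimmer probe at chr11:9018223-9018282 gave 0.10 ± 0.48 against Apc normal tissue (adjusted p = 0.887) and −0.07 ± 0.27 against wild type (adjusted p = 0.845). On that probe too the Apc normal array of mouse 107 was the lowest, at −5.24. The probes thus differ on whether polyps stand apart, and which transcripts each reads was not tested.

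Cmpk1 encodes the kinase that adds a second phosphate to UMP and CMP. It measured 2.04, 1.76, 2.34 and 2.38 in polyps, against 3.31, 3.80, 3.69 and 3.28 in Apc normal tissue and 3.13, 3.40, 3.10 and 3.64 in wild-type tissue. No polyp overlapped a normal array. Cmpk1 was 2.62-fold lower than in Apc normal tissue (adjusted p = 0.000716) and 2.28-fold lower than in wild-type tissue (adjusted p = 0.000651). Within slide 2 it differed by −1.66 (adjusted p = 0.0298) and within slide 3 by −1.12 (adjusted p = 0.0597).

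Rrm1 and Rrm2 encode the large and the small subunit of ribonucleotide reductase. In many cells the small subunit is made mainly during S phase, the part of the cell cycle in which DNA is copied. Rrm1 levels were 2.36, 2.34, 2.53 and 2.46 in polyps, against 0.98, 1.23, 1.14 and 1.27 in Apc normal tissue and 0.88, 0.70, 0.99 and 0.66 in wild-type tissue. The polyp arrays lay close together, far above all normal arrays. It was 2.41-fold higher than in Apc normal tissue (adjusted p = 0.000111) and 3.06-fold higher than in wild type (adjusted p = 1.03e-05). The difference passed within both slides, at 1.24 on slide 2 (adjusted p = 0.0295) and 1.29 on slide 3 (adjusted p = 0.0358).

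Rrm2 measured 2.51, 2.30, 2.18 and 2.33 in polyps, against 0.11, 0.65, 0.63 and 1.43 in Apc normal tissue and −0.26, 0.06, 0.73 and 0.07 in wild-type tissue. The polyp values were close together, while the normal tissues were spread more widely. Rrm2 rose 3.08-fold against Apc normal tissue (adjusted p = 0.00147) and 4.54-fold against wild type (adjusted p = 5.19e-05). It differed by 2.03 within slide 2 (adjusted p = 0.0228) and by 1.22 within slide 3 (adjusted p = 0.104), where the Apc normal array of mouse 110 was the highest normal value. The third subunit gene, Rrm2b, which supplies the small subunit outside S phase, fell below the brightness needed for a test.

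The promoters of Rrm1, Rrm2 and Uck2, which had the largest increases in polyps among the 10 enzymes, are given for reference, each from 250 bases before to 50 bases after the start site (RefSeq, GRCm38.p6). Capitals mark matches to motifs common in genes of dividing cells: CCAAT, or ATTGG where it lies on the opposite strand, and TTTGAA, known as the CHR. The windows are chr7:102441445-102441744 (plus strand) for Rrm1, chr12:24708004-24708303 (plus strand) for Rrm2 and chr1:167285078-167285377 (minus strand) for Uck2.
Rrm1 promoter: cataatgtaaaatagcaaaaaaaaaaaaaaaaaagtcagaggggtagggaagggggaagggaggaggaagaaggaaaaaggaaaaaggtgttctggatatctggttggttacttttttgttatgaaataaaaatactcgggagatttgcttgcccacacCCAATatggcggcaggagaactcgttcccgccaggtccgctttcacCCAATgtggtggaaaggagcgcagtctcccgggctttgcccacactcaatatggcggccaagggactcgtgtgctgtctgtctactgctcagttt
Rrm2 promoter: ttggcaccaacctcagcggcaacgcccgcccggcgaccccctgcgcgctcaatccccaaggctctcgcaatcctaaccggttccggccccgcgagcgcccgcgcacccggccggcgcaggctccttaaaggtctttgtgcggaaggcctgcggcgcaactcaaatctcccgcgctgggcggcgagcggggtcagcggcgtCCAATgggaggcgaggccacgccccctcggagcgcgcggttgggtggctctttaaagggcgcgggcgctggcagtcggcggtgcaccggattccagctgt
Uck2 promoter: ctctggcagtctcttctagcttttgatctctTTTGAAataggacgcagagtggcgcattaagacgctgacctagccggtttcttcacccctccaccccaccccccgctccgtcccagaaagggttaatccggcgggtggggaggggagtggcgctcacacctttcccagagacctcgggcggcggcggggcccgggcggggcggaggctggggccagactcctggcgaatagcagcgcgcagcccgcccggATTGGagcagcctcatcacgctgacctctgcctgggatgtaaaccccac

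Of the 10 genes, 9 had a promoter window in the table used, in 12 windows, and Dhodh had none. CCAAT was found in windows of 3 genes, Rrm1 (starting at −91 and −45 from the start site), Rrm2 (−50) and Uck2 (opposite strand, from 2 to 6). It occurred in 37.41% of all 32851 windows of this length. TTTGAA was found for Uck2 (−219) and Umps (−95) and occurs in 17.89% of windows. CACGTG, the E-box that Myc can bind, was found for Tyms alone (−61), beside 7.15% of windows. TTTNNCGC, an E2F motif, was likewise found for Tyms alone (starting at 42 after the start site), beside 5.17% of windows. Both strands were searched, and no motif overlaps another in the printed windows. A match describes these letters and not a bound factor.

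Tyms encodes thymidylate synthase, the enzyme blocked by fluorouracil. It measured −2.50, −2.37, −2.27 and −2.37 in polyps, against −3.11, −2.37, −2.79 and −2.52 in Apc normal tissue and −2.78, −2.92, −2.55 and −2.68 in wild-type tissue. Polyps overlapped Apc normal tissue, with both arrays of mouse 106 at the same level, and lay above all wild-type arrays. The difference was 0.32 ± 0.17 against Apc normal tissue (95% interval −0.06 to 0.71, adjusted p = 0.153). Against wild type Tyms was 1.28-fold higher (adjusted p = 0.0167), a call lost with normexp background correction (adjusted p = 0.0777) and with all 12 arrays in 1 fit (adjusted p = 0.0653).

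The array also carries a brighter probe annotated to Tyms-ps, a pseudogene copy of Tyms. Its sequence is given because its values differ from those of the Tyms probe. It lies at chr10:87430357-87430416 (mm9, plus strand).
Tyms-ps probe: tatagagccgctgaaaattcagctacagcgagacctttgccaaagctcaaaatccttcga
It measured 1.23, 1.48, 1.33 and 1.47 in polyps, against 0.63, 0.95, 0.50 and 0.79 in Apc normal tissue and 0.45, 0.54, 0.69 and 0.64 in wild-type tissue. The polyps did not overlap either normal group. The differences were 0.66 ± 0.13 (adjusted p = 0.00396) and 0.80 ± 0.10 (adjusted p = 0.000176). How far this probe reads RNA of Tyms itself was not tested, so the level of Tyms in polyps is uncertain between these probes.

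**Figure D2:**
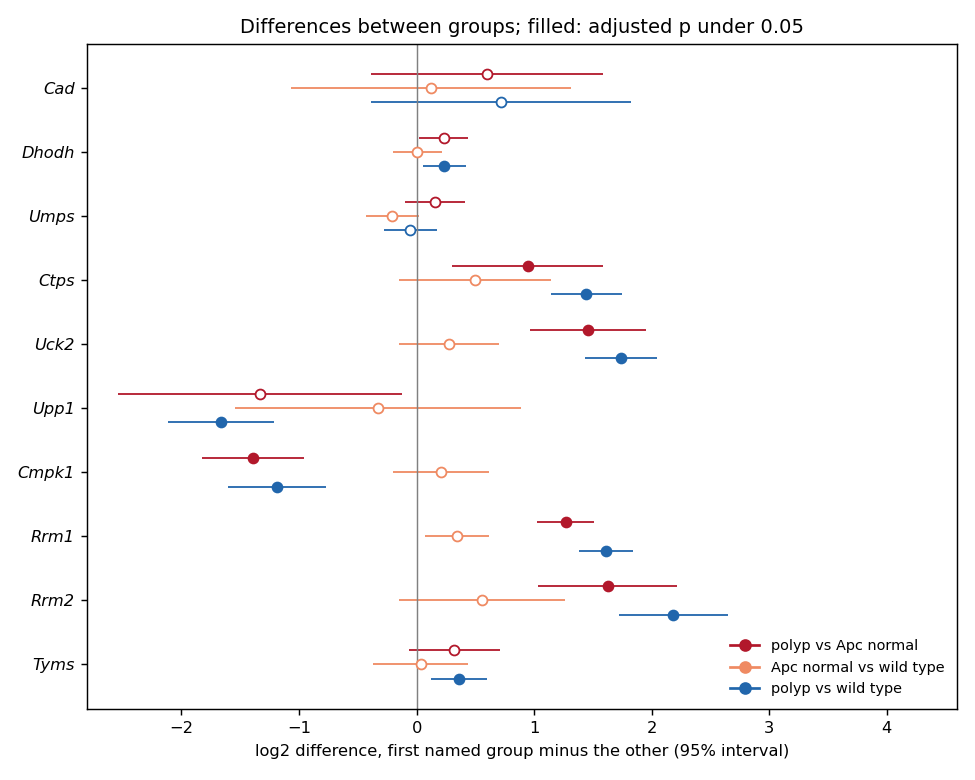
Log2 difference of each gene between groups (x axis, points, with 95% intervals before adjustment for multiple tests), 4 against 4 arrays. Red is polyp minus Apc normal, orange Apc normal minus wild type and blue polyp minus wild type, and filled points have an adjusted p under 0.05. No orange point is filled, and Rrm2 against wild type (2.18) is the farthest to the right.

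Against wild-type tissue 6 of the 10 genes were higher in polyps and 2 were lower, beside 27.4% higher and 32.8% lower among all tested genes (60.2% in either direction). The arrays of the 2 groups did not overlap for these 8 genes, beside 25.3% of all genes higher, 31.3% lower and 56.7% in either direction. The higher genes were Rrm2 (2.18 ± 0.20), Uck2 (1.74 ± 0.13), Rrm1 (1.61 ± 0.10), Ctps (1.44 ± 0.13), Tyms (0.36 ± 0.10) and Dhodh (0.24 ± 0.08, with its other probe opposed). The lower genes were Upp1 (−1.66 ± 0.20) and Cmpk1 (−1.19 ± 0.18). Cad and Umps did not pass. The median of the 10 was 0.54, against −0.05 over all tested genes.

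Between Apc normal and wild-type tissue 0 of the 10 genes passed, beside 0.169% of all tested genes (34), 0.149% higher and 0.0199% lower. At an unadjusted p under 0.05 there was 1 of the 10, Rrm1, beside 3439 of all genes (17.1%). Rrm1 differed by 0.34 ± 0.12 (adjusted p = 0.209), and of the other genes Rrm2 differed by 0.56 ± 0.31 (adjusted p = 0.390), Ctps by 0.50 ± 0.28 (0.403), Uck2 by 0.28 ± 0.18 (0.473) and Cmpk1 by 0.20 ± 0.18 (0.590). Umps was the one gene whose groups did not overlap, at −0.21 ± 0.10 (adjusted p = 0.322), beside 4.78% of all genes higher, 5.53% lower and 10.3% in either direction without overlap. Cad (0.12 ± 0.52), Dhodh (0.01 ± 0.09), Tyms (0.04 ± 0.18) and Upp1 (−0.33 ± 0.53) had standard errors as large as or larger than their differences. For Upp1 the sign turned to 0.24 without the Apc normal array of mouse 107. In the order of group means, Cad, Dhodh, Ctps, Uck2, Rrm1, Rrm2 and Tyms ran polyp, Apc normal, wild type from high to low, Cmpk1 ran Apc normal, wild type, polyp, Upp1 ran wild type, Apc normal, polyp, and Umps ran wild type, polyp, Apc normal. The normal groups were neighbours in that order for all but Umps and did not differ past the test for any of the 10 genes.

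Because each polyp array shares its mouse number with an Apc normal array, the difference was also taken within each number. The labels do not say in words that a number marks 1 animal. Rrm1 was higher in the polyp of all 4 mice, by 1.38, 1.10, 1.39 and 1.19 in mice 103, 106, 107 and 110. Rrm2 was higher by 2.40, 1.65, 1.54 and 0.90 and Uck2 by 1.74, 1.48, 1.02 and 1.60. These 3 genes kept 1 direction in every mouse with no value near 0. Ctps was higher by 1.45, 0.30, 1.33 and 0.71, so mouse 106 showed much less of it than mouse 103. Cmpk1 differed by −1.27, −2.04, −1.35 and −0.90, lower in all 4. Upp1 differed by −2.20, −2.02 and −1.35 in mice 103, 106 and 110 and by 0.23 in mouse 107. The small differences of Dhodh ran from 0.07 to 0.36, those of Tyms from 0.00 to 0.61 and those of Umps from −0.07 to 0.31. Over the 10 genes the median per mouse was 0.43, 0.28, 0.77 and 0.23, and 7, 8, 9 and 7 of them were higher in the polyp.

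**Figure D3:**
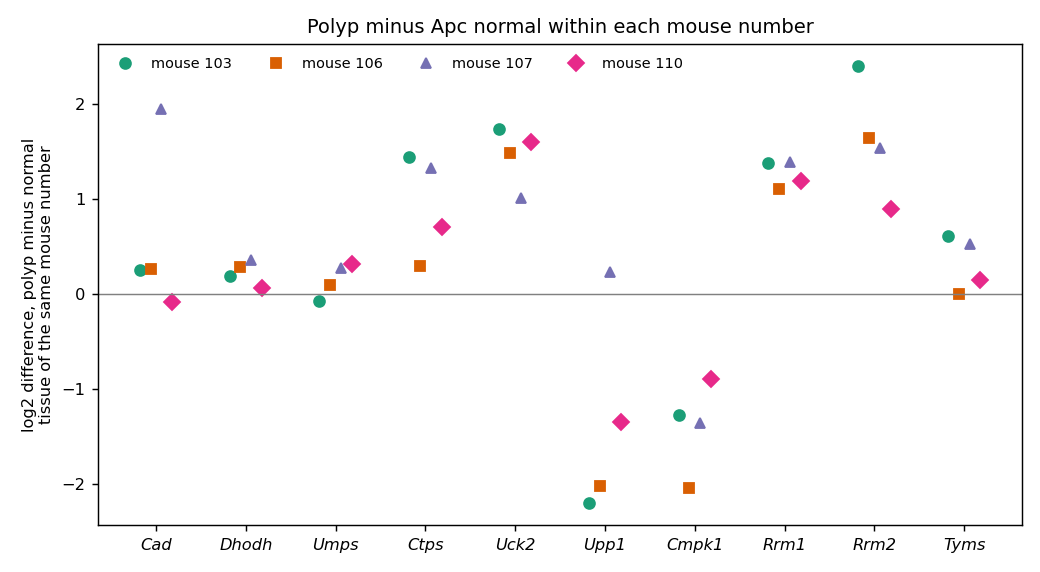
Log2 difference between the polyp and the Apc normal array of the same mouse number (y axis) for each of the 10 genes, 1 point per mouse number. All 4 points lie above 0 for Dhodh, Ctps, Uck2, Rrm1, Rrm2 and Tyms, though 1 point of Tyms is at 0.00 to 2 decimals, and below 0 for Cmpk1, while mouse 107 lies apart for Cad (1.95) and Upp1 (0.23).

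Beyond the 10 genes, 36 others of pyrimidine and deoxynucleotide metabolism were listed and 32 were bright enough to test (Rrm2b, Slc28a2, Upp2 and Dpys were not). Against Apc normal tissue 9 were higher in polyps and 3 were lower, beside 20.5% higher, 24.9% lower and 45.5% in either direction among all tested genes, and their median was 0.04, against −0.06 over all genes. Against wild type 12 were higher and 8 lower, beside 27.4%, 32.8% and 60.2% of all genes, with a median of 0.06, against −0.05 over all genes. Between Apc normal and wild-type tissue 0 of the 32 passed, beside 0.169% of all genes. At an unadjusted p under 0.05 there were 5 of the 32, close to the share of all genes (17.1%). Within slide 2 alone 4 passed and within slide 3 alone 2 passed. The counts by role follow, and no role was tested as a group.

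Of 7 salvage genes, 2 were higher and 0 lower against Apc normal tissue (20.5% and 24.9% of all genes), which is near the share of all genes. Tk1, the S-phase thymidine kinase, was higher by 0.83 ± 0.16 (adjusted p = 0.00409), with levels of 2.10, 1.90, 2.25 and 2.15 in polyps and 1.01, 1.07, 1.36 and 1.64 in Apc normal tissue. Dck, the deoxycytidine kinase gene, was higher by 0.59 ± 0.16 (adjusted p = 0.0185). Its probe was dim, with means of −3.48 in polyps and −4.07 in Apc normal tissue. Against wild type, where 27.4% of all genes were higher and 32.8% lower, Tk1 and Dck were higher by 1.08 ± 0.18 and 0.77 ± 0.12. There 2 other salvage genes, Uck1 and the mitochondrial thymidine kinase gene Tk2 (−0.47 ± 0.10, adjusted p = 0.00355), were lower. Uck1, Tk2 and, further down, Samhd1 are given against wild type after their values were seen. None of the 4 nucleoside transporters tested passed in any comparison, while 45.5% of all genes passed against Apc normal tissue and 60.2% against wild type. The 2 of smallest p against Apc normal tissue were Slc29a2 (0.16 ± 0.16, adjusted p = 0.455) and Slc28a3 (0.47 ± 0.55, adjusted p = 0.514).

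Of 7 nucleotide kinase genes, 3 were higher and 0 lower against Apc normal tissue, and 6 were higher and 0 lower against wild type, beside the same shares of all genes as above. Nme4, which encodes a mitochondrial nucleoside diphosphate kinase, had levels of 2.14, 2.24, 1.74 and 1.64 in polyps, against −0.28, −0.16, −0.52 and −0.03 in Apc normal tissue and −0.21, −0.26, −0.09 and −0.33 in wild-type tissue. It was 4.55-fold higher than in Apc normal tissue (adjusted p = 9.79e-05), with all 4 mice in that direction. Nme1, a cytosolic enzyme of the family, was higher by 0.90 ± 0.18 (adjusted p = 0.00422) and by 1.39 ± 0.11 against wild type (adjusted p = 2.69e-05). Dtymk, the thymidylate kinase, was the third (0.47 ± 0.13, adjusted p = 0.0206, named after its value was seen).

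Of 6 genes that supply or police the deoxynucleotide pool, 3 were higher and 0 lower against Apc normal tissue (20.5% and 24.9% of all genes). Against wild type 3 were higher and 1 lower (27.4% and 32.8%). Dut, whose enzyme removes dUTP and yields the substrate of thymidylate synthase, measured 0.35, 0.45, 0.41 and 0.35 in polyps and −0.53, −0.21, −0.55 and −0.17 in Apc normal tissue, a difference of 0.75 ± 0.12 (adjusted p = 0.00160). Dctpp1, which clears unwanted deoxycytidine triphosphates, was higher by 0.53 ± 0.10 (adjusted p = 0.00292). Dctd, the deoxycytidylate deaminase, which also makes dUMP, was higher by 1.37 ± 0.31 (adjusted p = 0.00845, named after its value was seen). Its probe was dim, with means of −2.82 in polyps and −4.18 in Apc normal tissue. Against wild type Dut was higher by 1.08 ± 0.08 (adjusted p = 1.59e-05) and Dctd by 1.77 ± 0.15 (adjusted p = 3.46e-05), while Samhd1, whose enzyme breaks down deoxynucleotides, was lower (−1.05 ± 0.25, adjusted p = 0.00656).

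Of 7 breakdown genes, 0 were higher and 3 lower against Apc normal tissue (20.5% and 24.9% of all genes), and 0 were higher and 5 lower against wild type (27.4% and 32.8%). Dpyd, the first and rate-limiting enzyme of uracil and thymine breakdown, which also inactivates fluorouracil, measured −4.10, −5.12, −3.88 and −3.78 in polyps, against −0.38, −1.07, 0.58 and −0.74 in Apc normal tissue and −0.11, −0.28, 0.02 and −0.21 in wild-type tissue. It was 14.1-fold lower than in Apc normal tissue (adjusted p = 0.000289) and 16.9-fold lower than in wild type (adjusted p = 1.47e-05). The Dpyd signal in polyps was dim, with a mean of −4.22. The lowest signal well above background lay between −7.00 and −5.17, so the size of these folds is uncertain. Nt5c3, a nucleotidase of pyrimidine monophosphates, fell by 1.42 ± 0.18 (adjusted p = 0.000500) and Nt5c by 0.73 ± 0.19 (adjusted p = 0.0152, named after its value was seen). Each of these 3 was lower in the polyp of all 4 mice.

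**Figure D4:**
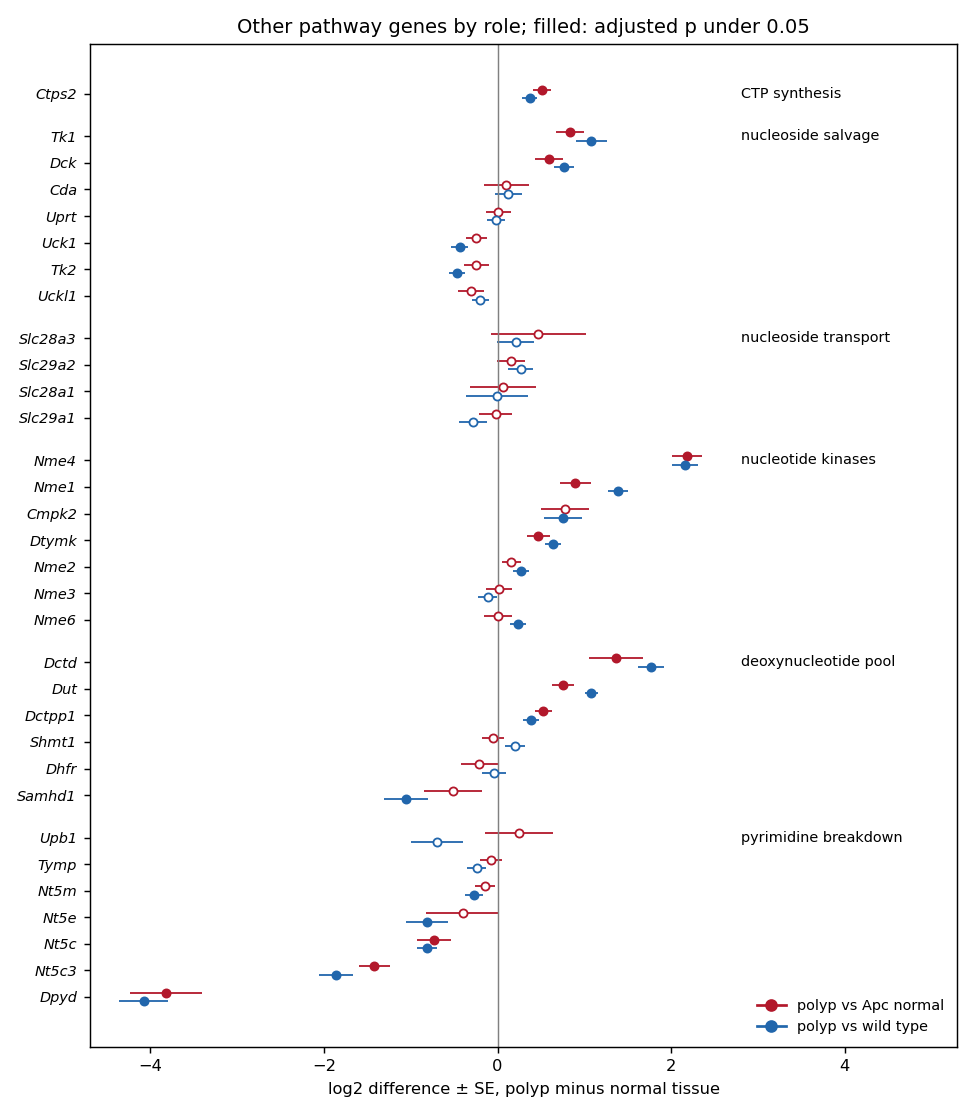
Log2 difference ± SE (x axis) of the 32 other pathway genes tested, grouped by role, for polyps against Apc normal tissue (red) and against wild-type tissue (blue). Filled points have an adjusted p under 0.05. Dpyd (−3.82 against Apc normal tissue) lies farthest to the left and Nme4 (2.19) farthest to the right.

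In Apc normal against wild-type tissue the pathway genes of smallest p in their roles included Upb1, of the last step of pyrimidine breakdown (−0.94 ± 0.30, adjusted p = 0.187), Nme1 (0.49 ± 0.18, adjusted p = 0.232), Dut (0.32 ± 0.12, adjusted p = 0.242), Shmt1 (0.25 ± 0.11, adjusted p = 0.289) and Nt5c3 (−0.44 ± 0.19, adjusted p = 0.290). None passed.

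Markers of dividing cells were higher in polyps, as were Rrm1, Rrm2 and Uck2. Whether they vary together from array to array was not tested. All 16 listed S phase and division genes passed as higher in polyps than in Apc normal tissue, beside 20.5% of all tested genes. Their median was 1.14, against −0.06 over all tested genes. Between Apc normal and wild-type tissue none passed, beside 0.169% of all genes (median 0.32, against −0.02). The 3 named next are from polyps against Apc normal tissue. The 3 of smallest p were Top2a (1.87 ± 0.13, adjusted p = 5.86e-05), Bub1 (2.15 ± 0.15, 7.30e-05) and Ccna2 (1.20 ± 0.13, 0.000279). Their summed linear signal, with the 75th percentile of the array as 1, was 101 to 107 in polyps, 41.9 to 63.5 in Apc normal tissue and 39.3 to 47.0 in wild-type tissue. The part of dividing cells in the higher enzyme levels was not tested.

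Markers of other cell types are given as counts called in polyps against Apc normal tissue, and no list was tested as a group. Among all tested genes 20.5% were higher and 24.9% lower in that comparison. Of absorptive colonocyte markers 9 of 10 tested were lower in polyps when set against Apc normal tissue, with sums of 76.8 to 164 in polyps, 601 to 1139 in Apc normal tissue and 804 to 1021 in wild-type tissue. Smooth muscle markers were lower in 10 of 10 (37.3 to 73.6, 382 to 520 and 551 to 759), and general epithelial markers in 4 of 8 (380 to 440, 535 to 646 and 534 to 659). All 8 epithelial markers were above background on every array. Neutrophil markers were higher in 5 of 9 (85.3 to 189, 24.7 to 44.9 and 40.3 to 47.0). B and plasma cell markers were lower in 4 of 10, macrophage markers higher in 2 and lower in 1 of 9 (with sums of 40.5 to 57.0 in polyps, 68.9 to 115 in Apc normal tissue and 69.5 to 93.1 in wild-type tissue), fibroblast markers higher in 3 and lower in 3 of 10, and T cell markers higher in 1 of 8. The part of these cells in the differences of Upp1, Cmpk1, Dpyd and the other genes was not tested. The summed level of the 10 enzymes themselves overlapped across groups, at 35.1 to 39.9 in polyps, 29.9 to 46.9 in Apc normal tissue and 29.3 to 38.0 in wild-type tissue. Bright probes weigh most in this sum, and it adds genes that were higher in polyps to genes that were lower. Its overlap therefore does not mean that the single genes were unchanged.

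**Figure D5:**
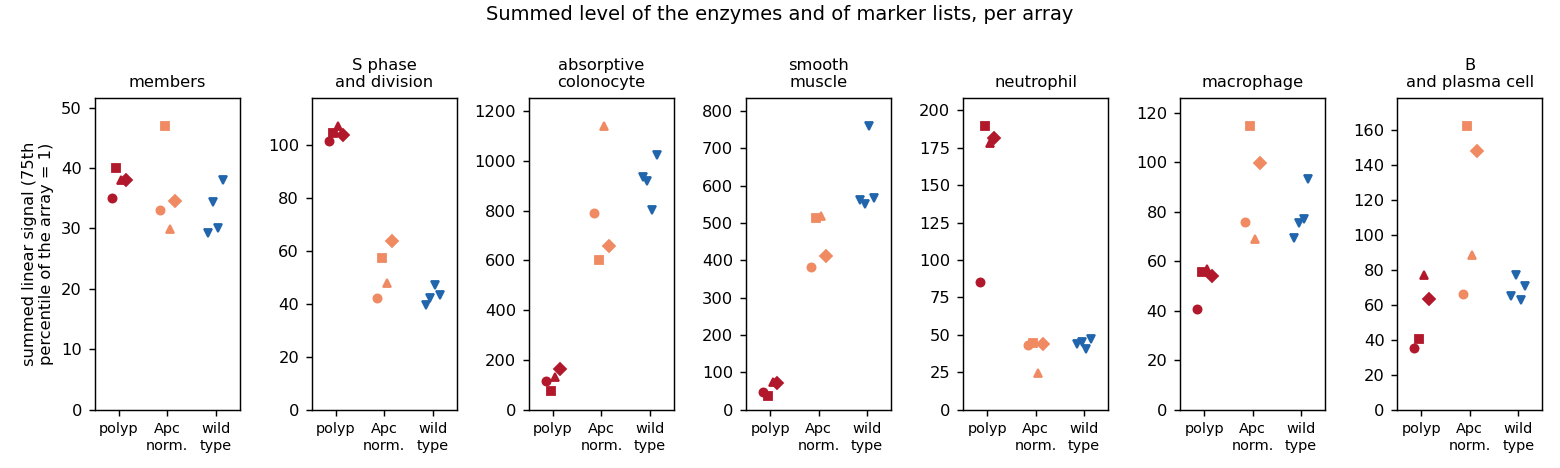
Summed linear signal per array (y axis, 75th percentile of the array set to 1, axes from 0) of the 10 enzymes and of 6 marker lists, with polyps left, Apc normal tissue in the middle and wild-type tissue right. Points are arrays. S phase and neutrophil sums are highest in polyps, colonocyte and smooth muscle sums lowest, and the sums of the enzymes overlap.

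The genes most like 4 of the enzymes were sought by the mean absolute difference between log2 profiles over the 12 arrays, each centred on its own mean, among 15185 tested genes. Nearest to Rrm2 were Aunip (0.17), Ercc6l (0.17) and Pole (0.18), against a median of 0.96 over all genes. Nearest to Cmpk1 were Tspan8 (0.11), Slc35a3 (0.11) and Uap1 (0.12), against 0.63. Upp1 was nearest to Psg17 (0.22), Cbr2 (0.23) and Gatm (0.23), against 0.90, and Cad to Itgae (0.26), Arhgap9 (0.28) and Slc2a6 (0.29), against 0.74. Among the enzymes themselves Rrm1 and Uck2 were each other's nearest (0.23), as were Cmpk1 and Upp1 (0.51) and Dhodh and Umps (0.13). All 12 arrays, polyps and normal tissue together, enter these values, which are a description.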

How the data were processed

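Cy3-labelled RNA of 12 colorectal samples was hybridised to Agilent 4x44K mouse arrays, and the titles gave each sample's group. Scanner files were deposited with intensity per spot: Agilent Feature Extraction 10.7.3.1 made a background-subtracted processed signal, per the file headers and the submitters' processing notes, and probe coordinates are in mm9. The authors' value table holds a linear ratio whose making is not stated by any source used here. Of its probes, 99.82% to 99.87% per array came within 1% of the processed signal over a constant, column medians were 0.9999 to 1, and it served as an alternative.

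After removing control spots and 1403 spots marked as outliers, log2 signals were averaged per probe and the 75th percentile of the array was subtracted. Gene names came through RefSeq accession for 27508 of 39429 probes, symbol for 3544 and synonym for 404 (GRCm38.p6 table), and the file's name was kept for 7973. The brightest probe stood for a gene. A gene was tested if its probe stood well above background on each of the 4 arrays of some group. A comparison was fitted on the 8 arrays concerned with lmFit and eBayes of limma 3.58.1 (R 4.3.3), two-sided, with Benjamini-Hochberg adjustment over all 20084 genes and a threshold of 0.05. Nothing beyond the numbers in the titles says that samples came from separate animals, and p-values measure the spread between these samples.

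The members and lists were chosen with earlier results of these data known. The text names all 10 members, the 2 other pathway genes of smallest p per role, 3 division genes and the 3 nearest genes by profile for 4 members. To check the pairing by mouse number, which comes from the titles, deviations from group means were correlated across genes between polyp and normal arrays. Within mice 103, 106, 107 and 110 r was 0.455, 0.170, 0.143 and 0.282, and between different mice it ran from −0.328 to 0.193. The normal array of mouse 106 was nearer the polyp of mouse 110 (0.193) than its own, so the check leaves that pair unclear. A mouse block was an alternative fit. Other alternatives were the scaling, background correction, filters and probe rules, all 12 arrays in 1 fit, the slide as a block, single slides and each array left out. The steps were tested on simulated data.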

Additional observations from a re-analysis of the deposited data

Results flagged for a closer look

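Each group of 4 arrays was searched for an array whose gap to its nearest neighbour took more than 0.829 of the range of the group, which chance gives in about 1 of 20 groups. Of the 30 groups of 4 values, 3 had one. In polyps, Umps was 1.86 in mouse 103 while the other polyps lay between 2.13 and 2.16, and Uck2 was 3.42 in mouse 106 while the others lay between 2.87 and 2.93. In wild-type tissue, Umps was 2.26 in mouse 108 while the others lay between 2.08 and 2.10. Without the polyp array of mouse 106, the difference of Uck2 from Apc normal tissue was 1.33 and still passed (adjusted p = 0.00350).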

How the results depend on the processing

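The 10 genes gave 220 values under 22 alternatives for polyps against Apc normal tissue. Of these, 203 kept direction and side of the threshold, 9 lost and 7 gained the call, and 1 reversed: Umps as the mean over its probes (−0.0070). With the mouse number as a replicate block, 5 members passed, as without it, with Upp1 at an adjusted p of 0.0572, and the block changed no call of a member. Within slide 2 alone 4 members passed (2 higher, 2 lower) and within slide 3 alone 1. All 12 arrays in 1 fit and slide as a random block each gave 7 (5 higher, 2 lower). Normexp gave 6 (5 higher, 1 lower). In that order, 10213, 9990 and 8966 of all 20084 genes passed, beside 9130 in the main fit. Over all genes 3466 passed within slide 2 and 1902 within slide 3, fits of 4 arrays; of the other pathway genes 4 and 2 passed. Leaving out 1 array gave 4 to 5 members, beside 7209 to 8683 of all genes.

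Between Apc normal and wild-type tissue 34 genes passed, but 4 with normexp, 2 without a filter, 226 with all 12 arrays in 1 fit, 14 with a variance trend, 814 with slide as a random block and 2 to 530 with 1 array left out, 530 being without Apc normal mouse 103. No member passed in any of these, and other pathway genes numbered 0 to 1 with 1 array left out. Reversed values were small: Dhodh at −0.037 with median scaling, −0.024 with normexp and −0.19 as the mean over probes, and Tyms at −0.0083 with median scaling. With 1 array left out, Cad ran from −0.19 to 0.56, Dhodh from −0.021 to 0.033, Tyms from −0.072 to 0.17 and Upp1 from −0.64 to 0.24.

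Against wild type 166 of 180 values kept direction and side of the threshold. Umps reversed with quantile normalization (0.079) and normexp (0.11) and ran from −0.080 to 0.019 with 1 array left out, and Dhodh reversed as the mean over probes (−0.049). The median over all genes between polyps and Apc normal tissue was −0.06, 0.02 with quantile normalization and 0.01 with normexp. Cad, Dck, Dctd, the second probes of Dhodh and Upp1, and Dpyd in polyps had low signals, which limits their values. The cause of these changes was not tested.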

Other observations

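The Apc normal array of mouse 107 was the lowest of its group for Slc28a3 and Nt5e, picked after the values were seen. It was also the lowest of that group for Nt5c, Samhd1, Upb1, Cmpk2, Dck, Dut, Dctpp1 and Nme4. Among the members the same held for Cad, Dhodh and Upp1, so a low value there was not particular to the genes picked. Other listed genes went the other way: Cda (1.57), Uckl1 (0.41), Uprt (−2.41) and Dpyd (0.58) were highest there among Apc normal arrays. Slc28a3, a concentrative nucleoside transporter, measured −1.36 there and 0.71, 0.89 and 1.30 in the Apc normal tissue of mice 103, 106 and 110. Nt5e, the ecto-nucleotidase CD73, measured 1.42 there and 3.22, 2.82 and 3.04 in those mice. In wild-type tissue they ran from 0.30 to 0.92 and from 2.74 to 3.19. Neither gene passed between polyps and Apc normal tissue with this array included. On the same array the absorptive colonocyte sum was the highest of the 12 (1139) and the neutrophil sum the lowest (24.7), and the S phase sum, 47.8, lay within the range of the other Apc normal arrays. The part of tissue makeup in these values was not tested.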
